A study of Mus musculus with 12 samples.

Results

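The response to retinoic acid (RA) was examined in the libraries labelled RARα KO. Both libraries of KO-labelled CD4 T cells cultured with 10 nM RA were set against both cultured without RA, so that 4 of the 12 libraries of the series were compared. They were chosen by the genotype and dose in their labels. All genes with at least 1 FPKM (fragments per kilobase of transcript, scaled to library size) in at least 2 of the 12 libraries were tested, 11922 of 52635 genes. At this limit the second-highest FPKM was 1.0001 for Rdh5, which was tested, and 0.9996 for C130013H08Rik, which was not. The other groups were WT with 10 nM RA, WT without RA, and a line labelled RARα TG with 10 nM RA and without RA, with 2 libraries in each group. The mice were C57BL/6 in all groups, and every culture lasted 24 h. All cultures, with and without RA, held charcoal-stripped serum and activating antibodies to CD3 and CD28. Of the cytokines shared by all, IL-6 was at 20 ng/mL, IL-23, IL-1β and IL-21 at 10 ng/mL, and human TGF-β1 and TNFα at 5 ng/mL, with IFNγ and IL-4 blocked by antibodies at 10 µg/mL, a mixture that drives naive cells towards the Th17 state. The KO allele, the cells in which it is inactive and the TG construct are not described in the sources used here, nor is it stated whether replicates came from separate mice. P-values then measure only the spread between these libraries.

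RA, the active derivative of vitamin A, binds the nuclear receptors RARα, RARβ and RARγ, which sit on DNA as partners of an RXR. Without ligand the pair holds corepressors, and with ligand it exchanges them for coactivators. In CD4 T cells RA is known to raise gut-homing receptors and Foxp3 and to restrain inflammatory cytokines, and RARα, the product of Rara, is the RAR most often tied to these effects. The comparison asks which parts of the RA response appear in cells labelled as lacking that receptor.

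The read depth behind the values, recovered from the steps between low FPKM values, was 17302230 to 18524310 reads in the 4 KO-labelled libraries and 16288760 to 25532310 reads over all 12. Rara itself stood at 16.8 and 17.6 FPKM in KO-labelled cells with RA and at 19.5 and 19.3 FPKM in KO-labelled cells without RA, against 12.3 and 14.2 FPKM in WT with RA and 16.5 and 18.9 FPKM in WT without RA. The gene-level value was therefore not lower under the KO label. Whether part of the gene was missing was not tested, because the values are given per gene and not per exon. The libraries are called KO-labelled throughout. All 8 CD4 T-cell markers were present, with summed levels of 1059 and 920.3 FPKM with RA and 1005 and 844.7 FPKM without RA. Other cell types left a trace, which for dendritic, B-cell and monocyte, macrophage and neutrophil markers was higher in replicate 2. The 7 NK and innate lymphoid markers summed to 5.27 and 5.42 FPKM with RA and 4.04 and 4.24 FPKM without RA. They differed little between replicates and were higher with RA in both. The γδ T-cell markers were lower in replicate 2 (7.57 and 6.34 FPKM with RA, 7.09 and 5.48 FPKM without RA), and the CD8 markers did not keep a direction. The 10 dendritic and class II markers summed to 25.9 and 79.1 FPKM with RA and to 26.9 and 74.1 FPKM without RA, and 8 of them were higher in replicate 2 at both doses. The 12 B-cell markers summed to 38.1 and 68.6 FPKM with RA and to 31.7 and 54.9 FPKM without RA, and the 14 monocyte, macrophage and neutrophil markers to 7.36 and 21.5 FPKM with RA and to 7.43 and 22.7 FPKM without RA. Xist, the transcript of the inactive X chromosome, stood at 47.4 to 72.7 FPKM in the 4 KO-labelled libraries and at 0.00315 FPKM at most in the 4 WT libraries. The KO-labelled and WT libraries thus differed in sex, which cannot be told apart from genotype when they are compared, whereas RA was compared within 1 sex in each.

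Under the KO label RA raised a small set of genes that included the known RA targets Hic1, Itga4, Nrip1 and Gfi1. In limma on log2(FPKM + 1), 16 genes rose (0.134% of the genes tested) and 1, Lgals3, fell (0.00839%) at an adjusted p below 0.05. Together these were 0.143% of the genes tested. In WT 795 genes rose (6.67%) and 414 fell (3.47%). Of the 16 genes that rose in KO-labelled cells, 14 also rose in WT, which is 87.5% of the KO-labelled rises and 1.76% of the WT rises, and all 14 had a smaller effect in KO-labelled cells than in WT. Same-numbered libraries of a genotype deviated together, which does not establish that they were paired. With that number as a block in the model, 60 genes rose (0.503%) and 15 fell (0.126%) in KO-labelled cells, and 53 of these rises and 9 of these falls were also called in WT without the block. Fitted on the 4 KO-labelled libraries alone, limma called no gene, while 1280 genes (10.7%) had an unadjusted p below 0.05 in the fit of all libraries. The count of 17 was 6 without KO 10 nM replicate 2, 8 without KO 10 nM replicate 1 or either WT library without RA, and 9 without KO 0 nM replicate 2 or either TG library without RA. The WT count of 1209 lay between 342 and 850 when any 1 WT library was left out.

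Hic1, a zinc-finger transcriptional repressor (ENSMUSG00000043099, chr11:75164565-75169519, minus strand, GENCODE M21 on GRCm38.p6), showed the largest rise of the 16. Its level was 11.4 and 22.8 FPKM in KO-labelled cells with RA and 1.31 and 1.14 FPKM in KO-labelled cells without RA. Both libraries with RA lay far above both without it, and the difference was 2.95 ± 0.25 on the log2(FPKM + 1) scale (± SE, n = 2 libraries per group, limma adjusted p = 0.0035). Itga4, the α4 chain of the gut-homing integrin α4β7 (ENSMUSG00000027009, chr2:79255426-79333123, plus strand), stood at 20.7 and 23.1 FPKM with RA and at 4.10 and 3.09 FPKM without RA, a rise of 2.33 ± 0.15 (limma adjusted p = 0.00075). Nrip1, a ligand-dependent corepressor of nuclear receptors (ENSMUSG00000048490, chr16:76287400-76373827, minus strand), stood at 14.7 and 19.9 FPKM with RA and at 4.26 and 4.23 FPKM without RA, a rise of 1.79 ± 0.12 (limma adjusted p = 0.0011). For both genes, too, the groups did not overlap, as for 24.1% of all tested genes in this direction. Gfi1, a zinc-finger repressor that opposes Th17 and regulatory fates in mice (ENSMUSG00000029275, chr5:107716657-107726036, minus strand), had 23.9 and 29.7 FPKM with RA and 8.36 and 6.23 FPKM without RA. It rose by 1.75 ± 0.19 (limma adjusted p = 0.018), but the adjusted p was 0.058 without KO 10 nM replicate 1, 0.20 without KO 10 nM replicate 2 and 0.13 without KO 0 nM replicate 2. AA467197, also known as Nmes1, had 7.37 and 9.76 FPKM with RA and 1.63 and 1.93 FPKM without RA, a rise of 1.77 ± 0.17 (limma adjusted p = 0.0071, and 0.071 without KO 10 nM replicate 2). Mdk, which encodes the secreted growth factor midkine, had 4.81 and 5.35 FPKM with RA and 1.44 and 1.92 FPKM without RA. Its rise of 1.19 ± 0.12 (limma adjusted p = 0.011, and 0.057 or 0.14 without KO 10 nM replicate 1 or 2) was close in size to the 1.31 ± 0.12 of WT, where it stood at 4.72 and 5.42 FPKM with RA and 1.41 and 1.49 FPKM without RA.

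**Figure D1:**
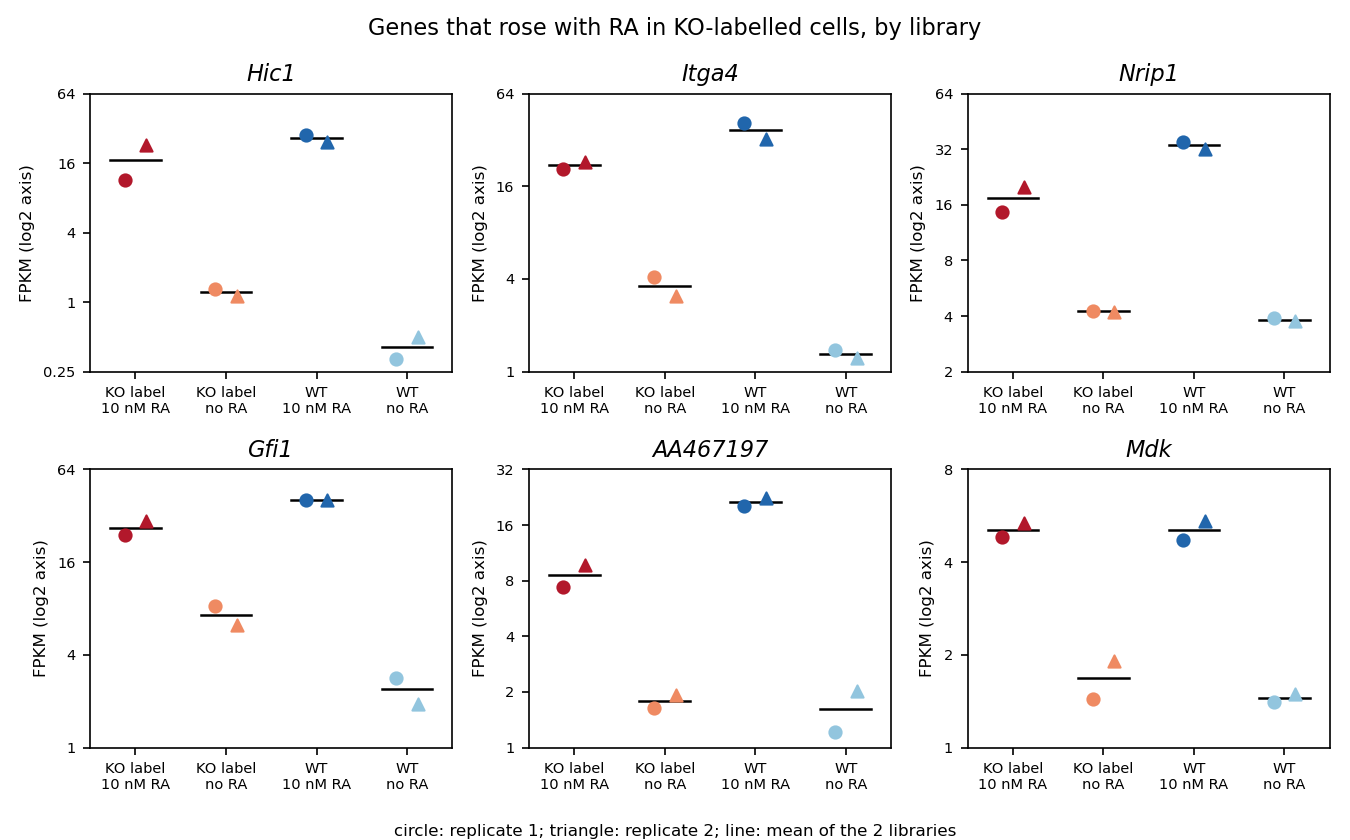
FPKM on a log2 axis of 6 genes that rose with RA under the KO label, in KO-labelled cells with and without RA and in WT cells with and without RA (circles, replicate 1; triangles, replicate 2; lines, means of 2 libraries). In each gene both KO-labelled libraries with RA lie above both without RA. For Gfi1, Itga4 and, by a smaller margin, Nrip1, the KO-labelled libraries without RA also lie above the WT libraries without RA.

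The other rises were smaller. Cttn, which encodes the actin-binding protein cortactin, had 3.46 and 4.03 FPKM with RA and 1.64 and 1.42 FPKM without RA, a rise of 0.91 ± 0.11 (limma adjusted p = 0.027). Cpm, a membrane carboxypeptidase, had 4.71 and 4.19 FPKM with RA and 2.40 and 2.18 FPKM without RA (0.73 ± 0.09, limma adjusted p = 0.027). Podnl1, Phldb3, Smg6, Slc12a4 and Pstpip1 rose by 0.78, 0.77, 0.56, 0.50 and 0.46 on the same scale (limma adjusted p of 0.029, 0.037, 0.043, 0.043 and 0.030). Slc12a4 encodes a potassium-chloride cotransporter and Pstpip1 an adaptor of the T-cell cytoskeleton. The call of Slc12a4 was lost with the replicate block (limma adjusted p = 0.063). Smg6 and Hic1 are neighbours on opposite strands of chromosome 11, and because the strand setting of the counting is not given, reads of the pair may not be fully separated. Traj60, a T-cell receptor joining segment, was listed at 1.03 and 1.04 FPKM with RA and at 0 in both libraries without RA. It showed the same in WT, with 1.09 and 1.14 FPKM with RA and 0 in both without RA. These levels lie at the limit of the filter and can rest on very few reads, and the call was lost in voom on recovered reads and with a pseudocount of 0.1. Traj60 therefore adds little weight to the 16 rises and to the 14 shared with WT. Leaving out each of the 12 libraries in turn, Hic1, Itga4, Nrip1, Gm10184 and Rbpsuh-ps1 passed every time, the last pair being genes that the filter kept only through the KO-labelled libraries with RA. The other 12 of the 17 genes lost their call in at least 1 of these fits, and Slc12a4 in all 12. Cttn, Cpm, Podnl1, Phldb3, Smg6, Pstpip1 and Traj60 all lost it without KO 10 nM replicate 1, KO 10 nM replicate 2 or KO 0 nM replicate 2, and the highest limma adjusted p for each was 0.24, 0.19, 0.25, 0.31, 0.38, 0.22 and 0.20.

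The 250 bases before the annotated starts were read for the 14 genes that rose both under the KO label and in WT. The search covered only 2 forms of the half-site, the letters that RAR and RXR pairs recognise. RefSeq on GRCm38.p6 gave 13 such windows for 10 of these genes. These forms were AGGTCA and AGTTCA on both strands, alone or as direct repeats with 1, 2 or 5 bases between them. Of the 13 windows, 2 held either form and 0 a direct repeat, while among 32851 windows of this length 24.2% held either form. Direct repeats with 1, 2 and 5 bases between were in 0.0670%, 0.0365% and 0.0335% of those windows. The windows below run 5′ to 3′ on the gene's strand, with matches to the forms searched in capitals. They are from the strongest rises, Hic1 (minus strand) and Itga4 (plus strand), and the pair with a match, Gfi1 (minus strand) and Cpm (plus strand). Hic1 and Gfi1 each had another window, which is not shown and held neither form. The Hic1 window shown lies within the GENCODE gene, and the Gfi1 window overlaps its own.
Hic1 chr11:75168153-75168402: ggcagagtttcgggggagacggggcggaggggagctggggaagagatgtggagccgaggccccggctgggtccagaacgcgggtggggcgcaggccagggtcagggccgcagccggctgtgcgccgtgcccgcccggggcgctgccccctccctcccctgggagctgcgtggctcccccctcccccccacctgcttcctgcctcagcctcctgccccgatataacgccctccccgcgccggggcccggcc
Itga4 chr2:79255176-79255425: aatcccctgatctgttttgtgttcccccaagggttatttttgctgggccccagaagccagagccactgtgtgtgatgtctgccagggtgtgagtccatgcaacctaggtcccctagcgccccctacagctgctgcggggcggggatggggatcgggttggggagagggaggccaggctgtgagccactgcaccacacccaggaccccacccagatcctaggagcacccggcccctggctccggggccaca
Gfi1 chr5:107725806-107726055: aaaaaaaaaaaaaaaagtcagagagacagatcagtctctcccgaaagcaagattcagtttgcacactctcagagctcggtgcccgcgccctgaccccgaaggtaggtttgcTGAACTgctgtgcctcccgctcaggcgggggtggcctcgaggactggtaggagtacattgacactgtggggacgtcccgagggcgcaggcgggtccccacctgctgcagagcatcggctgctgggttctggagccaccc
Cpm chr10:117629250-117629499: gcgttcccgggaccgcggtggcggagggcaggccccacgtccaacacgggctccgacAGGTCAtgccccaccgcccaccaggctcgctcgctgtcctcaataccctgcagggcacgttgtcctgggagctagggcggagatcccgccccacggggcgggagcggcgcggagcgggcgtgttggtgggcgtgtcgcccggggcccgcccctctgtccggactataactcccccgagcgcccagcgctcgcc
A match describes only these letters. Other forms of the half-site were not searched, and elements further from the start were not read.

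The shared rises reached smaller sizes under the KO label with differing start and end levels. These patterns follow which contrast passed and were not tested against each other. Some began from a higher level without RA. Gfi1 had 8.36 and 6.23 FPKM in KO-labelled cells without RA, against 2.84 and 1.93 FPKM in WT without RA, a difference of 1.29 ± 0.19 (KO label minus WT, limma adjusted p = 0.018). Itga4 was likewise higher by 0.99 ± 0.15 (limma adjusted p = 0.017), with 1.38 and 1.22 FPKM in WT without RA. Cttn (0.65 ± 0.11, limma adjusted p = 0.027) and Pstpip1 (0.39 ± 0.06, limma adjusted p = 0.018) also differed in this direction, and 138 of all genes did (1.16%), against 69 lower (0.579%). With RA, Gfi1 had 23.9 and 29.7 FPKM in KO-labelled cells and 40.6 in both WT libraries. This difference of -0.59 ± 0.19 did not pass (limma adjusted p = 0.29). Itga4 was also lower than in WT with RA, and that difference did not pass either. Other genes began at like levels and ended lower. Nrip1 had 4.26 and 4.23 FPKM in KO-labelled cells without RA and 3.90 and 3.76 FPKM in WT without RA. With RA it had 14.7 and 19.9 FPKM in KO-labelled cells and 35 and 32.1 FPKM in WT, a difference of -0.93 ± 0.12 (limma adjusted p = 0.011). AA467197 was lower in KO-labelled than in WT cells with RA by the same contrast (-1.23 ± 0.17, limma adjusted p = 0.013), with 20.2 and 22.3 FPKM in WT. In all, 49 genes were lower (0.411%) and 56 higher (0.470%) in KO-labelled than in WT cells with RA. None of these calls on single genes held in every fit that left out 1 library of the groups compared: the adjusted p reached 0.14 for Gfi1, Itga4 and Pstpip1 and 0.19 for Cttn without RA, and 0.066 for Nrip1 and 0.11 for AA467197 with RA. Leaving out any 1 of these libraries without RA cut the 207 calls to between 31 and 80, and the 105 calls with RA became 44 without KO 10 nM replicate 1 and 46 without WT 10 nM replicate 2.

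Across genes the RA effect under the KO label ran in the WT direction at less than its size. Of the 795 genes that rose in WT, 788 had a positive effect in KO-labelled cells (99.1%), and in 85.2% both libraries with RA lay above both without it, against 24.1% of all tested genes. Of the 414 that fell in WT, 402 had a negative effect (97.1%) and 85.7% had separate groups, against 18.2% of all tested genes. These lists were chosen on the WT values, which makes the WT effect look larger. Genes called in the TG line give a list chosen on effects measured in the TG libraries, although the filter and the estimate of the spread drew on all 12 libraries. In TG 19.7% of all tested genes rose with RA and 19.4% fell. Over the 526 genes that RA raised 2-fold or more in TG, the median effect was 0.28 under the KO label and 0.59 in WT, and 93.3% were positive under the KO label and 98.5% in WT. Over the 228 genes that RA lowered 2-fold or more in TG, the medians were -0.28 under the KO label and -0.58 in WT, and 88.2% were negative under the KO label and 93.9% in WT. The median of all genes was 0.01 under the KO label and 0.02 in WT.

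The same held within each replicate number. For the 2-fold rises of TG the median was 0.23 in KO-labelled replicates 1 and 0.30 in KO-labelled replicates 2, against 0.62 and 0.58 in WT replicates 1 and 2. For the 139 genes raised 4-fold or more in TG the medians were 0.39 under the KO label and 0.95 in WT. Over the 526 genes the median KO label minus WT difference was 0.23 without RA and -0.08 with RA. For the 228 genes lowered in TG it was -0.25 without RA and 0.09 with RA, so that KO-labelled cells without RA lay nearer than WT to the levels with RA in both lists. Single genes rarely passed the test of the difference itself. Only Rbpsuh-ps1 did (1 gene, 0.00839%), a gene that the filter kept through the KO-labelled libraries with RA alone, and no gene did (0.0%) with the replicate block or in voom on recovered reads, while 640 genes (5.37%) had an unadjusted p below 0.05. Without KO 10 nM replicate 1 the count was 2 and without KO 10 nM replicate 2 it was 4. Among the 526 genes, 182 had an unadjusted p below 0.05 towards a smaller KO-labelled rise (34.6%) and 0 towards a larger one, against 3.46% of all tested genes with a lower effect under the KO label and 1.90% with a higher one. Itga4 (-1.71 ± 0.21), Gfi1 (-1.88 ± 0.27), Nrip1 (-1.05 ± 0.17) and Hic1 (-1.33 ± 0.35) did not pass over all genes, with limma adjusted p of 0.096, 0.18, 0.23 and 0.50. Across the 11922 genes the effects under the KO label and in WT correlated at 0.51, a description over genes, which are not independent.

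**Figure D2:**
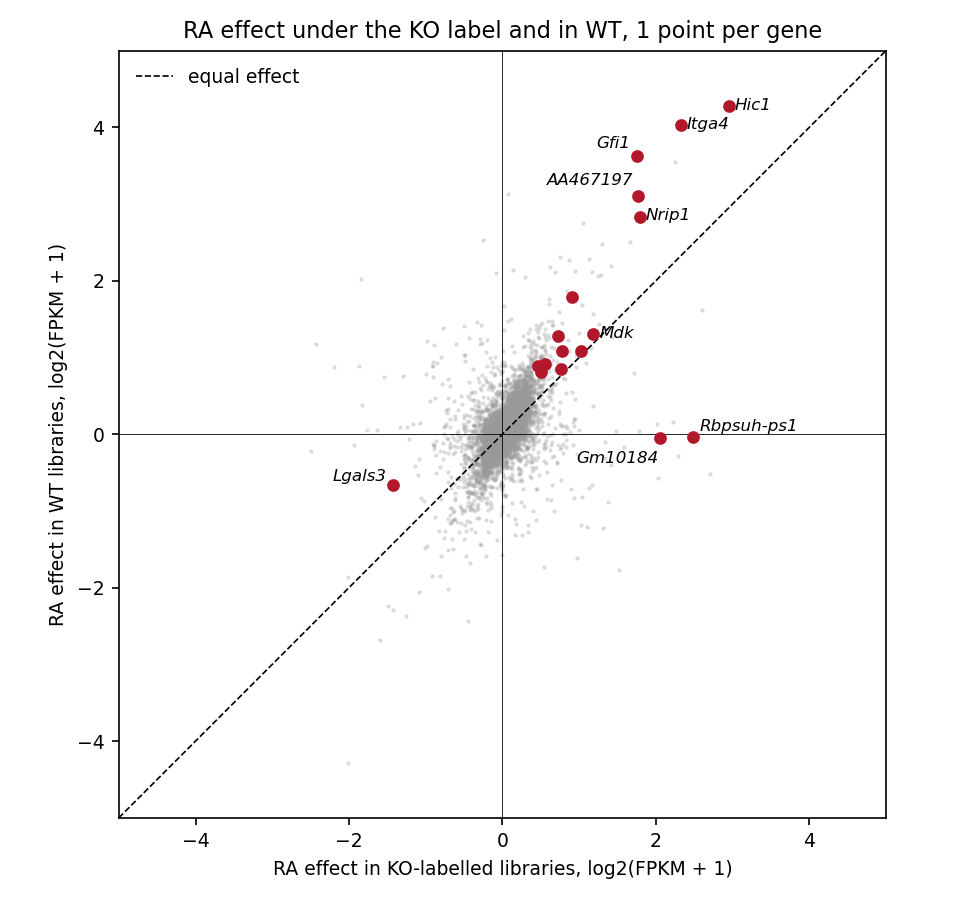
RA effect (difference of log2(FPKM + 1)) in KO-labelled libraries on the x axis and in WT libraries on the y axis, 1 point per tested gene, with the 17 genes called under the KO label in red and the dashed line marking equal effects. Hic1, Itga4, Gfi1, AA467197 and Nrip1 lie above the line, Mdk lies near it, and Rbpsuh-ps1 and Gm10184 have no WT effect.

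**Figure D3:**
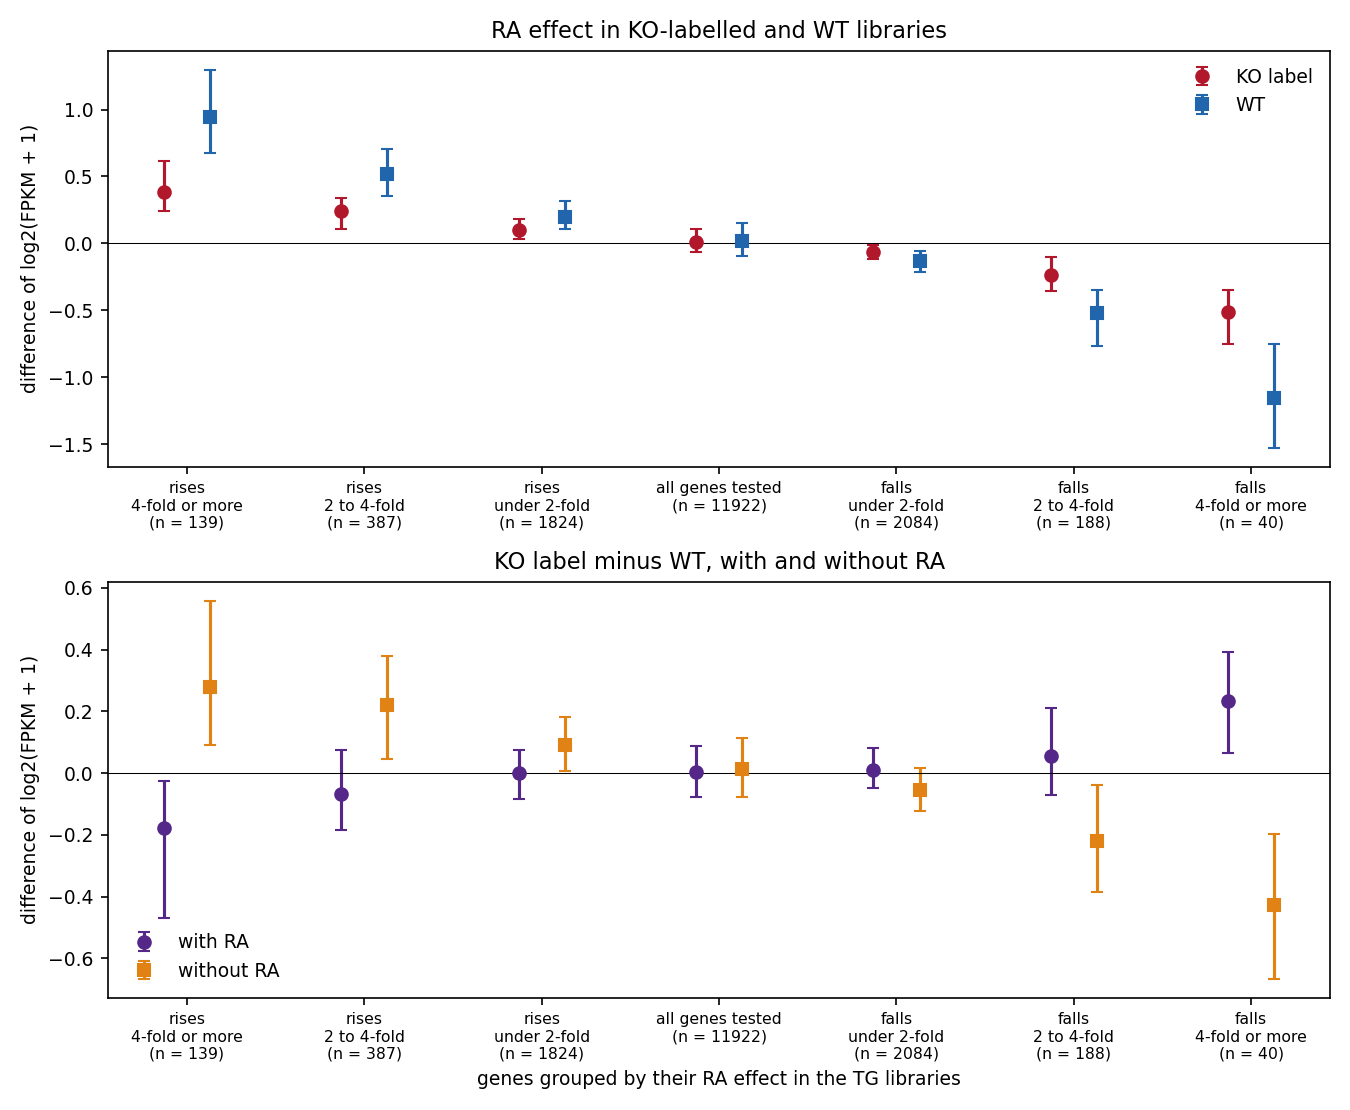
Medians (points) and quartiles (bars) over genes grouped by their RA effect in the TG libraries, with the number of genes under each class. The upper panel plots the RA effect in KO-labelled and WT libraries and the lower panel the KO label minus WT difference with and without RA, as differences of log2(FPKM + 1); the KO-labelled effect is nearer 0 than the WT effect in each of the 6 TG classes.

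Several cytokines and the filament gene Vim stood lower with RA, and these passed only with the replicate block. Lgals3, which encodes the galactose-binding lectin galectin-3, passed without it. It had 2.56 and 2.69 FPKM in KO-labelled cells with RA and 8.27 and 9.30 FPKM without RA, a fall of -1.43 ± 0.20 (limma adjusted p = 0.043, and 0.063 with the replicate block). In WT it was low throughout, at 0.317 and 1.12 FPKM with RA and 1.86 and 1.43 FPKM without RA, and the KO label minus WT difference was 1.12 ± 0.20 with RA and 1.89 ± 0.20 without RA (limma adjusted p = 0.043 and 0.0039). Its fall did not pass without any 1 of the 4 KO-labelled libraries (limma adjusted p of 0.13 to 0.33), nor did the difference with RA without KO 10 nM replicate 1, KO 10 nM replicate 2 or WT 10 nM replicate 1 (0.21, 0.18 and 0.053). Il9, the cytokine interleukin-9, had 28.3 and 25.5 FPKM in KO-labelled cells with RA and 88.6 and 139 FPKM without RA. The groups did not overlap, and the effect of -2.01 ± 0.44 had a limma adjusted p of 0.14, or 0.028 with the block. In WT Il9 had 9.35 and 15.5 FPKM with RA and 201 and 322 FPKM without RA, and the difference between the RA effects, 2.28 ± 0.63, did not pass (limma adjusted p = 0.55). Vim, the intermediate filament vimentin, had 12 and 15.9 FPKM with RA and 33.6 and 57.3 FPKM without RA under the KO label (-1.60 ± 0.31, limma adjusted p = 0.12, or 0.014 with the block). Il17f, a Th17 cytokine, had 147 and 150 FPKM with RA and 269 and 370 FPKM without RA (-1.08 ± 0.22, limma adjusted p = 0.12, or 0.031 with the block). Il10, an anti-inflammatory cytokine, had 0.677 and 0.901 FPKM with RA and 2.69 and 5.19 FPKM without RA (-1.42 ± 0.24, limma adjusted p = 0.088, or 0.048 with the block). In Vim, Il17f and Il10 both libraries with RA again lay below both without RA. Fam129b (-1.0), Mov10 (-0.66) and the adhesion receptor gene Cd44 (-0.76) passed only with the block as well (limma adjusted p of 0.040, 0.048 and 0.048). Icos, a costimulatory receptor, had 25.9 and 22.9 FPKM with RA and 39.8 and 47.9 FPKM without RA, and passed in neither fit (limma adjusted p = 0.096, or 0.090 with the block), and neither did Il1r1, the receptor of IL-1, and Il24 (limma adjusted p of 0.10 and 0.21).

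**Figure D4:**
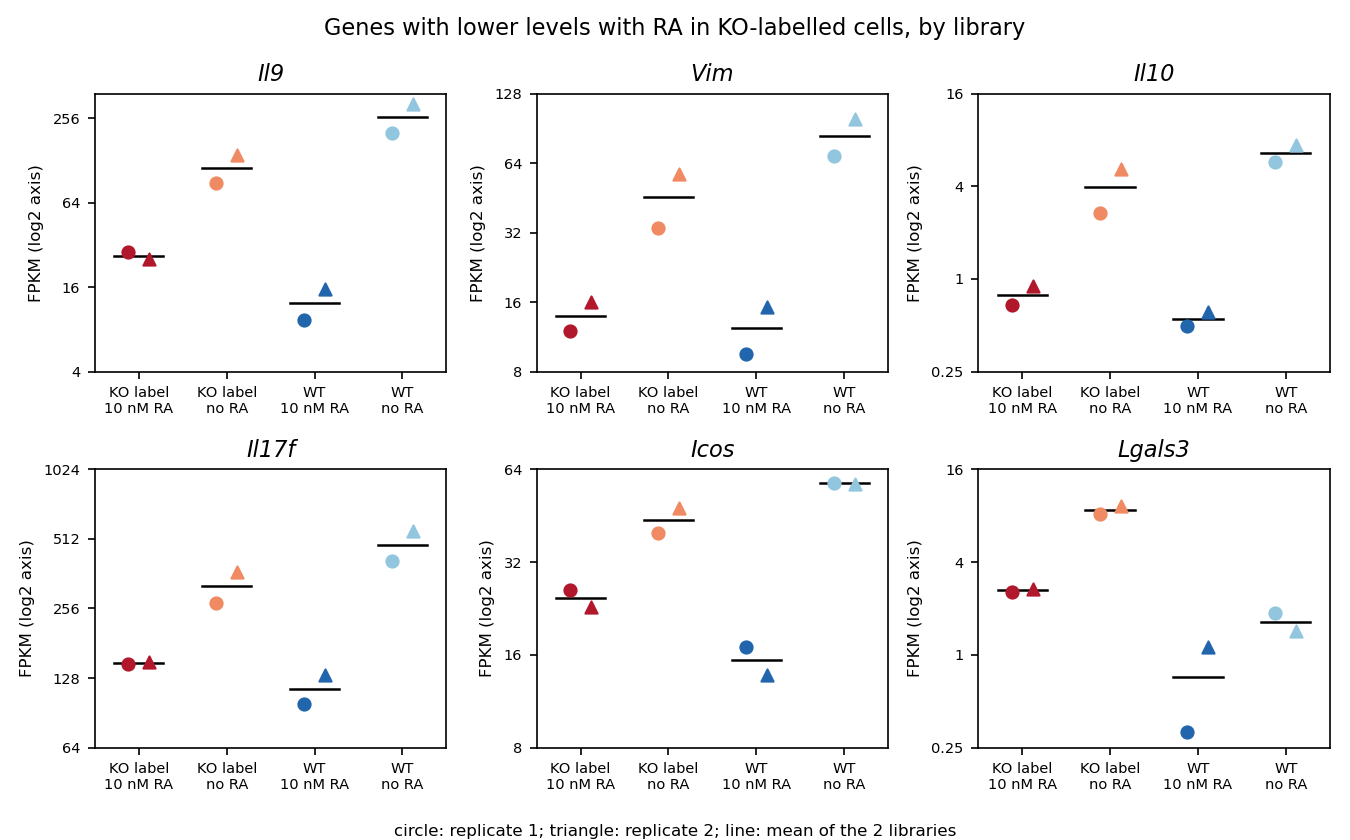
FPKM on a log2 axis of 6 genes with lower levels with RA under the KO label, drawn as in the plot of rising genes. The KO-labelled libraries with RA lie below those without RA in each gene, Lgals3 is higher under the KO label than in WT at both doses, and Lgals3 alone passed the test without the replicate block.

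Among 15 tested genes known to be induced by RA, 4 rose under the KO label (Hic1, Itga4, Nrip1 and Gfi1), 0 fell and 11 did not pass, while 0.134% of all genes rose. The list was chosen with earlier results of these data known, so its excess over all genes is a description and no independent support. The median effect was 1.05 under the KO label and 2.28 in WT, where 11 rose, against 6.67% of all genes. With the block 7 rose, the added ones being Tgm2, Stra6 and Plac8, and 1 was lower, Rarg, against 0.503% and 0.126% of all genes. Tgm2, the crosslinking enzyme transglutaminase 2, had 20.5 and 28.3 FPKM with RA and 12.4 and 13 FPKM without RA (0.87 ± 0.15, limma adjusted p = 0.10, or 0.048 with the block). It ended lower than in WT, where it had 43.2 and 56.1 FPKM with RA (KO label minus WT -1.0 ± 0.15, limma adjusted p = 0.024, 0.12 without KO 10 nM replicate 1 and 0.14 without WT 10 nM replicate 2). Stra6, the cell-surface receptor that takes up vitamin A, had 2.39 and 6.80 FPKM with RA and 0.0595 and 0.102 FPKM without RA (2.25 ± 0.35, limma adjusted p = 0.070, or 0.048 with the block). Plac8, a small cysteine-rich protein gene, had 11.1 and 14.6 FPKM with RA and 3.30 and 3.36 FPKM without RA (1.67 ± 0.24, limma adjusted p = 0.053, or 0.048 with the block). Crabp2, which carries RA to its receptors, had 8.84 and 15.1 FPKM with RA and 5.07 and 5.06 FPKM without RA, and passed in neither fit (1.05 ± 0.24, limma adjusted p = 0.15, or 0.076 with the block). It too was lower than in WT with RA, where it had 36.5 and 31.7 FPKM (-1.47 ± 0.24, limma adjusted p = 0.030, 0.13 without KO 10 nM replicate 1 and 0.12 without WT 10 nM replicate 1 or 2). Ccr9, the gut-homing chemokine receptor, had 1.42 and 1.47 FPKM with RA and 0.101 and 0.0579 FPKM without RA (1.18 ± 0.17, limma adjusted p = 0.058, or 0.054 with the block), and Asb2, a ubiquitin ligase subunit, had 1.56 and 2.43 FPKM with RA and 0.718 and 0.549 FPKM without RA (limma adjusted p = 0.11). In each of these genes the KO-labelled groups lay apart.

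Retinoid receptor genes stood lower with RA in part. The median effect of the 4 tested was -0.29 under the KO label and -0.49 in WT, against 0.01 and 0.02 over all genes. In 3 of the 4 both KO-labelled libraries with RA lay below both without it, against 18.2% of all genes. In the other 1 both lay above, against 24.1% of all genes. Of the 4, 0 passed, against 0.143% of all genes. Rarg, the gene of RARγ, had 4.29 and 2.98 FPKM with RA and 6.30 and 4.61 FPKM without RA, and passed as lower only with the block (-0.48 ± 0.15, limma adjusted p = 0.30, or 0.048 with the block). Rxra had 3.35 and 3.23 FPKM with RA and 4.34 and 5.23 FPKM without RA (limma adjusted p = 0.28), and Rarb was at 0.0107 FPKM at most in the 4 libraries. Of 13 tested genes of retinoid uptake, binding and metabolism 0 passed, near the 0.143% of all genes, and Stra6 alone rose with the block, against 0.503% of all genes. Dhrs3, a retinaldehyde reductase and a known RA target, had 0.360 and 0.422 FPKM with RA and 0.0592 and 0.0922 FPKM without RA under the KO label (limma adjusted p = 0.43). Cyp26b1, which degrades RA, was listed at 0 in all 4. Of 23 tested coactivators and corepressors, Nrip1 rose and 22 did not pass, with a median effect of 0.02, while 0.134% of all genes rose.

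Il17a, Foxp3, Gata3 and Tbx21, genes of 4 different T-helper fates, did not pass in KO-labelled cells. Of 27 tested genes of the Th17 programme 0 passed, near the 0.143% of all genes, and Il17f alone was lower with the block, against 0.126% of all genes. The median was -0.12 under the KO label and -0.15 in WT. Il17a, the leading Th17 cytokine, had 6.39 and 8.92 FPKM with RA and 7.65 and 9.63 FPKM without RA (-0.16 ± 0.20, limma adjusted p = 0.82), and the groups overlapped. Il21 had 35 and 36.0 FPKM with RA and 39.5 and 41.1 FPKM without RA (-0.18 ± 0.06, limma adjusted p = 0.38), and Il22 had 1.2 and 1.92 FPKM with RA and 2.50 and 5.59 FPKM without RA (limma adjusted p = 0.55). Of 23 tested regulatory T-cell genes 0 passed, again near the 0.143% of all genes. With the block Nt5e rose and Il10 fell, against 0.503% and 0.126% of all genes. Foxp3, the master regulator of regulatory T cells, had 30.4 and 55.3 FPKM with RA and 22.6 and 30.6 FPKM without RA. The groups overlapped, and the effect of 0.62 ± 0.25 did not pass (limma adjusted p = 0.42, or 0.069 with the block). In WT Foxp3 stood at 50.4 and 57.1 FPKM with RA and 9.95 and 12.3 FPKM without RA, and KO-labelled cells without RA exceeded WT by 1.18 ± 0.25, which did not pass (limma adjusted p = 0.062). Nt5e, the ecto-enzyme CD73, had 2.77 and 3.84 FPKM with RA and 0.605 and 1.24 FPKM without RA (1.17 ± 0.18, limma adjusted p = 0.071, or 0.012 with the block). It was far below WT at both doses, where it had 50.4 and 45.7 FPKM with RA and 10.9 and 9.73 FPKM without RA (KO label minus WT -3.52 ± 0.18 with RA and -2.57 ± 0.18 without RA, limma adjusted p = 4.8e-05 and 0.00037). In bulk RNA fewer expressing cells and less RNA per cell cannot be told apart.

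Of 12 tested Il9, Il10, Il24 and Th2-type genes 0 passed, near the 0.143% of all genes, so this count says little. Il9 and Il10 were lower with the block, against 0.126% of all genes. Gata3, the Th2 regulator, had 1.66 and 1.23 FPKM with RA and 1.13 and 1.19 FPKM without RA (limma adjusted p = 0.71). Of 19 tested Th1, cytotoxic and NK-associated genes 0 passed, again near the share of all genes. Xcl1, a chemokine for dendritic cells, alone rose with the block, against 0.503% of all genes (30.8 and 30.2 FPKM with RA, 20.6 and 15.4 FPKM without RA, limma adjusted p = 0.48, or 0.048 with the block). Tbx21, the Th1 regulator T-bet, had 3.14 and 6.41 FPKM with RA and 3.67 and 4.60 FPKM without RA, with overlapping groups (limma adjusted p = 0.93). Of 25 tested homing and egress genes Itga4 rose and 24 did not pass, while 0.134% of all genes rose. Itgb7, the β7 partner of the α4 chain, had 61.7 and 49.1 FPKM with RA and 57.9 and 50.1 FPKM without RA (limma adjusted p = 0.97). Cxcr5, the follicular homing receptor, rose with the block (29.5 and 24.0 FPKM with RA, 22.5 and 17.4 FPKM without RA, limma adjusted p = 0.38, or 0.048 with the block). Ifngr1, a chain of the IFNγ receptor, rose with the block too, with 31.5 and 28 FPKM with RA and 21 and 18.8 FPKM without RA (limma adjusted p = 0.098, or 0.028 with the block).

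H2-DMa, a class II peptide-loading chaperone, was among the larger rises that passed only with the block. It had 44.3 and 48.5 FPKM with RA and 23.2 and 15.3 FPKM without RA (1.25 ± 0.18, limma adjusted p = 0.054, or 0.048 with the block). Cd74, the class II invariant chain, had 12.8 and 40.5 FPKM with RA and 13.5 and 37.9 FPKM without RA, so that it differed by replicate number and not by RA. The part of other cells' RNA in the H2-DMa value was not tested. Gimap3, Ctsc, Wnt10b and Dtx4 also passed only with the block, with effects of 0.52, 0.54, 0.75 and 1.29 (limma adjusted p with the block of 0.041, 0.048, 0.048 and 0.050, and without it of 0.37, 0.053, 0.10 and 0.15). These 4, and Ifngr1, Cxcr5, Cd44, Mov10, Asb2 and H2-DMa, were named after their values were seen.

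In the broad programmes of activated cells the called share lay near the background of 0.143% over all genes, so the counts say little about them. None passed among 47 T-cell receptor signalling genes, 40 ribosome biogenesis genes, 32 stress-response genes, 40 replication genes, 30 mitosis genes, 26 glycolysis and hypoxia genes, 29 sterol and fatty acid genes, 24 cytokine receptor genes, 21 TGF-β genes, 18 costimulatory and inhibitory receptors and 22 interferon-stimulated genes. With the block no member of these lists passed either, while 0.503% of all genes rose and 0.126% fell. Of 40 ribosome biogenesis genes 7 fell in WT, against 3.47% of all genes. Under the KO label 36 of the 40 lay on the negative side, with a median of -0.08 against -0.17 in WT. Ncl, the nucleolar protein nucleolin, had 346 and 347 FPKM with RA and 388 and 376 FPKM without RA (-0.14 ± 0.06, limma adjusted p = 0.43). Of 30 mitosis genes 29 had a negative effect under the KO label, with a median of -0.16 against -0.20 in WT. Their summed level was 655 and 968 FPKM in KO-labelled replicates 1 and 2 with RA, against 722 and 1109 FPKM without RA, lower with RA within each replicate number. The replicates differed by more than this, and 0 of 30 had groups that did not overlap in the lower direction, against 18.2% of all tested genes. Of 38 activation transcription factors Gfi1 rose and 37 did not pass, while 0.134% of all genes rose. Irf4, needed for effector fates, had 326 and 314 FPKM with RA and 374 and 358 FPKM without RA (-0.19 ± 0.05, limma adjusted p = 0.16). Of 21 vimentin, galectin, annexin and S100 genes Lgals3 fell and 20 did not pass, while 0.00839% of all genes fell. With the block Vim alone was lower, against 0.126% of all genes.

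**Figure D5:**
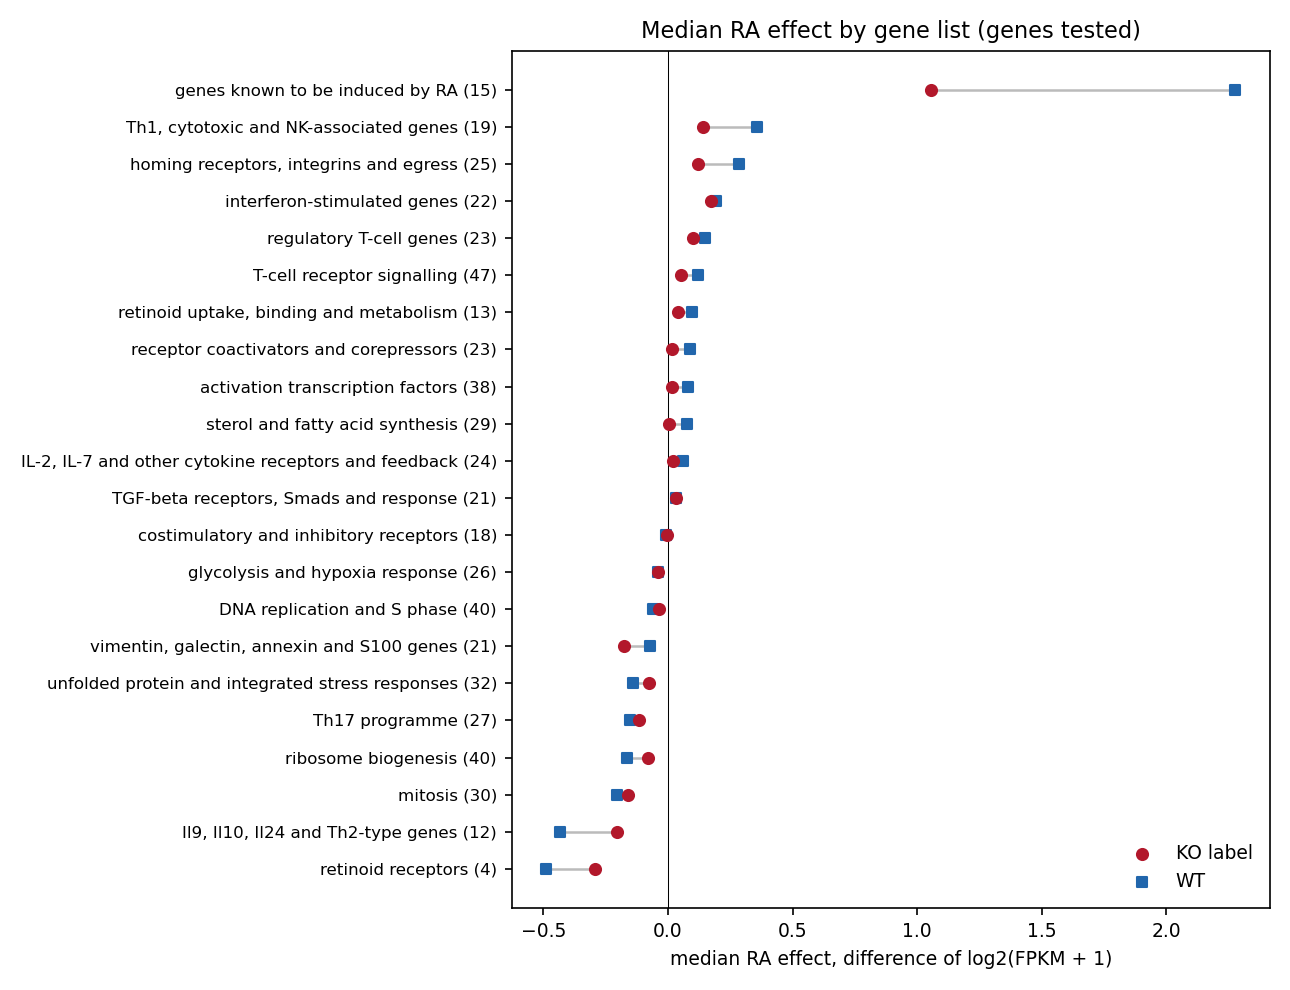
Median RA effect (difference of log2(FPKM + 1)) of 22 gene lists under the KO label (red) and in WT (blue), with the number of tested genes in parentheses. The list of genes known to be induced by RA stands at 1.05 under the KO label and 2.28 in WT, and the other lists lie within 0.5 of 0 in both. The lists were chosen with earlier results of these data known.

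The 2 rises under the KO label that were not called in WT were those of a pseudogene and a predicted gene. Rbpsuh-ps1, a processed pseudogene of the Notch effector gene Rbpj, had 4.96 and 4.30 FPKM in KO-labelled cells with RA and 0 in both KO-labelled libraries without RA, and it reached 0.0592 FPKM at most in the other libraries. Its parent Rbpj had 12.5 and 14.9 FPKM with RA and 13.5 and 13.4 FPKM without RA, with overlapping groups. Gm10184, a predicted gene on chromosome 17, had 2.49 and 4.06 FPKM with RA and 0 and 0.0278 FPKM without RA, and at most 0.0606 FPKM in the other libraries. Both entered the tested genes only through the KO-labelled libraries with RA, so that they had to differ, and their calls are no support. The value of a gene copy depends on how reads that fit several places were counted, which is not given in the sources used here. Another 5 genes were above 1 FPKM in all 4 KO-labelled libraries and below 0.2 FPKM in the other 8, with no RA effect that passed. They were Elobl and the predicted genes Gm43305, Gm44075, Gm35082 and Gm42031. Elobl, for instance, had 6.32 and 4.38 FPKM with RA and 5.20 and 3.95 FPKM without RA.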

How the data were processed

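RNA from naive CD4 T cells of more than 95% purity, as labelled, cultured for 24 h, was sequenced as 100 bp single reads with a stranded kit, per the labels' protocols. The authors deposited 1 table of FPKM values with a column per library. STAR, HTSeq 0.6.1, DESeq2 and Trimmomatic 0.32 were used in making it on the mouse builds GRCm38.p5 or mm10, with no roles given, per the submitters' processing notes; the gene annotation, the strand setting and the treatment of reads with several places are not stated there. Unequal handling of such reads would change genes with near-identical copies.

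From these values log2(FPKM + 1) was computed and fitted with limma 3.58.1 in R 4.3.3 (6 group means over 12 libraries, empirical Bayes with a mean-variance trend, 6 residual degrees of freedom), with Benjamini-Hochberg adjustment over all 11922 genes tested and a threshold of 0.05. A fold change on this scale understates the change of genes near or below 1 FPKM. Groups follow the genotype and dose labels. Steps of whole reads gave depths of 16288760 to 25532310 reads, with 95.3% to 96.0% of low values within 0.02 of a whole read. The depth was used for a voom fit chosen after seeing the data, on reads rebuilt from exon lengths. Rbpsuh-ps1 and Gm10184, kept by the filter through the KO-labelled libraries with RA alone, had to differ.

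The replicate numbers in the labels were checked for pairing. The deviations of same-numbered libraries from their group means correlated at 0.32 in KO-labelled, 0.33 in WT and 0.15 in TG libraries over genes. In a group of 2 libraries these deviations mirror each other, so the check cannot establish pairing. That the numbers pair the samples is thus an assumption. A fit with the number within each genotype as a block is given where it changes a call. The alternatives were a pseudocount of 0.1, no filter, upper-quartile scaling, both forms of the block, robust empirical Bayes, a fit of only the libraries compared, and leaving out each library. Replicate libraries differed from each other and none was counted as a copy.

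The members, the 30 gene lists and the tests were chosen with earlier results of these data known. The genes named are those called under the KO label, the largest changes called in WT, a fixed set of retinoid, T-helper and cytokine genes, and 10 genes added after their values were seen. Gene positions are from GENCODE M21 on GRCm38.p6, in which 52488 of the 52635 gene IDs were found, and sequences from RefSeq on the same build. The fits were tested on simulated data. Counts of genes with separate groups need both libraries of one group above both of the other. 1 gene of the lists is not reported here.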

Additional observations from a re-analysis of the deposited data

Results flagged for a closer look

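Rbpsuh-ps1 was flagged because its RA effect differed between genotypes in the test of the difference itself, by 2.52 ± 0.17 on the log2(FPKM + 1) scale (KO label minus WT, limma adjusted p = 0.0028, and 0.061 with the replicate block). It had 4.96 and 4.30 FPKM in KO-labelled cells with RA, and was listed at 0 or near 0 in all other groups. It entered the tested genes only through those 2 libraries, so the test was bound to find a difference and gives no support. Gm10184, kept by the filter in the same way, was flagged because both KO-labelled libraries with RA lay above those without RA while WT ran the opposite way. The difference of the RA effects was 2.10 ± 0.25 and did not pass (limma adjusted p = 0.096), and the WT levels of 0 and 0.0317 FPKM with RA and 0.0457 and 0.0582 FPKM without RA are too low to give a direction. Idi1, an enzyme of sterol and isoprenoid synthesis, was flagged for opposite directions too, with 2.28 and 2.02 FPKM in KO-labelled cells with RA and 1.75 and 1.92 FPKM without RA, against 1.82 and 1.89 FPKM in WT with RA and 1.98 and 2.13 FPKM without RA. The difference of 0.25 ± 0.13 did not pass (limma adjusted p = 1.0).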

How the results depend on the processing

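The count of genes called for RA under the KO label, 17, was 30 with no filter on low values, 75 with the replicate block within each genotype, 73 with a replicate block shared by genotypes, 0 in a fit of the 4 libraries alone and 6 to 19 with 1 library left out. It was 12, 13, 17 and 20 with the pseudocount of 0.1, upper-quartile scaling, robust empirical Bayes and voom. For the difference of the RA effects (1 gene) it was 0 with the pseudocount of 0.1, the block within genotypes or voom, 21 with no filter, and 1 to 4 with 1 library left out. For KO label against WT without RA (207) it was 479 with the shared block, 26 in a fit of only those libraries and 31 to 80 with 1 left out, and with RA (105) it was 174, 14 and 44 to 94 in the same fits. For RA in WT (1209) it was 142 in a fit of only those libraries and 342 to 850 with 1 left out. The median KO-labelled effect over the 2-fold rises of TG, 0.28, was 0.33 in voom and 0.25 to 0.29 with 1 library left out; the medians over the other classes moved by less than the spread between replicate numbers. Directions turned for genes that did not pass: Il17a ranged over -0.38 to 0.049, Itgb7 over -0.13 to 0.19 and Tbx21 over -0.30 to 0.54 with 1 library left out. Over 98 single-gene values and 1785 alternatives, 1544 kept direction and side of the threshold, 177 lost and 59 gained the call and 5 turned. The cause of these shifts was not tested, beyond fewer libraries in some fits. With 2 libraries per group and 17302230 to 18524310 reads in each KO-labelled library, genes near 1 FPKM are imprecise.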
